A study of Mus musculus with 29 samples.

Results

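Border-associated macrophages are the resident macrophages of the meninges, the perivascular spaces and the choroid plexus. A set of 10 genes usually listed as their markers was followed here in sorted mouse microglia. The 10 are Mrc1, Pf4, F13a1, Cbr2, Ms4a7, Cd209f, Cd163, Lyve1, Stab1 and Cd36. They were chosen by name, as the rows of the count table with these mouse gene symbols. All 10 of these symbols were found among the 36982 genes of the table, each once, and all 10 passed the filter on low counts that left 16632 genes for testing. No cutoff on a value was used to pick a member, but the list was drawn up with earlier results of these data known.

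The question of the series is whether new microglia, formed after an enforced depletion, keep a memory of an earlier injection of lipopolysaccharide (LPS, a bacterial cell wall component). All mice were male C57BL/6J, received a first intraperitoneal injection at 10 weeks of age and a second one 5 weeks later, and were killed 3 h after the second, at 15 weeks. Starting 1 week after the first injection, every mouse was gavaged daily for 5 days, with the CSF1R inhibitor BLZ945 at 169 mg/kg per day or with its cyclodextrin vehicle. PP mice (n = 5 libraries) had saline at both injections and vehicle, PBP mice (n = 5) saline at both and BLZ945, PL mice (n = 4) saline, vehicle and then 1 mg/kg LPS, PBL mice (n = 5) saline, BLZ945 and then LPS, LL mice (n = 5) LPS at both and vehicle, and LBL mice (n = 5) LPS at both and BLZ945. Bulk RNA was sequenced from live cells sorted for high CD11b, intermediate CD45 and absent Ly6C. The sorting panel held no antibody against CD206, the protein of Mrc1, or against any other product of the 10 genes. Border-associated macrophages usually carry more CD45 than microglia, and how many of them the gate on intermediate CD45 let through is not given. BLZ945 reached the whole animal by mouth and was not restricted to microglia.

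Like microglia, border-associated macrophages express CSF1R, the receptor for CSF1 and interleukin 34 on which tissue macrophages depend for survival, and CSF1R inhibitors deplete both kinds of cell to differing degrees. Their marker genes are mostly scavenging and endocytic receptors facing blood vessels and cerebrospinal fluid. Several are shared with other cells: Pf4 with platelets, Lyve1 with lymphatic endothelium, F13a1 with monocytes and platelets, and Cd36 with endothelium, platelets and monocytes.

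The libraries held 5670450 to 12671476 counts. Levels are given as CPM, counts scaled to library size after TMM normalization. Genes were tested with edgeR's quasi-likelihood model over all 29 libraries, and a gene was called where its Benjamini-Hochberg adjusted p over the 16632 genes was under 0.05. Where libraries of a group are not from separate animals, which the labels do not spell out, these p-values measure only the spread between libraries. In RNA from a sorted population, fewer cells of a type and less RNA of a gene per cell cannot be told apart. The labelled cell type was checked with 12 microglia markers, among them P2ry12, Tmem119 and Sall1, whose summed level lay between 38800 and 79682 CPM in every library. Most groups were sorted apart from each other. The deposited sample table put PP with PL replicates 3 and 4 on day 5, PBP replicates 1 to 4 with PL replicates 1 and 2 on day 4, PBL with PBP replicate 5 on day 3, and the remaining groups, LL with LBL, on days 1 and 2. Days 4 and 5 used an Astrios sorter and days 1 to 3 an XDP sorter. PBP replicate 5 stood apart from its group, with 178 CPM summed over 11 neuron markers against a PBP median of 31.9.

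To show what lies directly before the start sites of the genes the results turn on, the 250 bases upstream of the start were read from RefSeq (build GRCm38.p6) for 9 of the 10 genes, as 11 windows. They were searched on both strands for a PU.1 motif (GAGGAAG; PU.1 is the transcription factor that macrophages and microglia require), a MAF site (TGCTGAC) and an E-box (CACGTG). The PU.1 letters were found in 4 of the 11 windows, against 10.6% of 32851 windows of the same length. The other motifs were in none, against 3.81% and 6.02% of all windows. The 4 windows with a match, those of Mrc1 (chr2:14229164-14229413, + strand), Pf4 (chr5:90772185-90772434, + strand), F13a1 (chr13:37050245-37050494, - strand) and Cbr2 (chr11:120732022-120732271, - strand), are shown 5′ to 3′ in the direction of the gene, with the PU.1 letters or their reverse complement in capitals. A match describes the letters in the window and not a bound site.
Mrc1: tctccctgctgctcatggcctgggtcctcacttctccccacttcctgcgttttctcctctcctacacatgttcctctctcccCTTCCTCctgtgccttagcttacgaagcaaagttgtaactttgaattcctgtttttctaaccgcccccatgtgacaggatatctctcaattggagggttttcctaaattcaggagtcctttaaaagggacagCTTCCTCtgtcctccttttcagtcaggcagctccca
Pf4: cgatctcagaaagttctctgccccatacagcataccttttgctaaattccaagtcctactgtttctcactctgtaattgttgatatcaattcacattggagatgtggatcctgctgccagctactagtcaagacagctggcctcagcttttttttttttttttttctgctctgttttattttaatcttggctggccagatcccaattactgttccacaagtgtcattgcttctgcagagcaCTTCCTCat
F13a1: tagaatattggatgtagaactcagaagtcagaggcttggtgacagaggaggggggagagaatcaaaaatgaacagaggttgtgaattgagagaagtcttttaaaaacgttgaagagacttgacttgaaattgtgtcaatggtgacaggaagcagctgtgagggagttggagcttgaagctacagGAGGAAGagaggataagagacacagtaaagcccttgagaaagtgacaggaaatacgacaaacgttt
Cbr2: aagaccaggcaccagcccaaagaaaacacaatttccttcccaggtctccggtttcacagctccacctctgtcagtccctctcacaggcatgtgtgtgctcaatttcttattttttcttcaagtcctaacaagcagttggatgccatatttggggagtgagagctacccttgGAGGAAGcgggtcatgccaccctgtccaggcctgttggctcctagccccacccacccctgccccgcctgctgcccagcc

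Did microglia from mice that had been given BLZ945 hold less of these transcripts than microglia from vehicle mice? For 7 of the 10 genes they did in both LPS settings, weeks after the inhibitor was stopped, and the fitted levels were 7.70% to 31.2% of the vehicle level. Of these, Cd209f, at the low end, passed the filter on low counts only through vehicle libraries. PBL and PL were sorted on different days and sorters, and none of the 7 was called there with the sorter or the sorting day in the model. In LBL against LL, 3 of the 7 were called with the day in the model. Without LPS the calls were fewer: only Mrc1 and Cd209f were called, and the 10 genes had a median log2 difference of -1.27, against 0.04 over all genes tested. With LPS after saline (PBL against PL) the median was -2.24, against 0.02 over all genes. With LPS after LPS (LBL against LL) it was -1.86, against 0.02. Stab1 and Cd36 were called in none of the 3 comparisons.

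**Figure D1:**
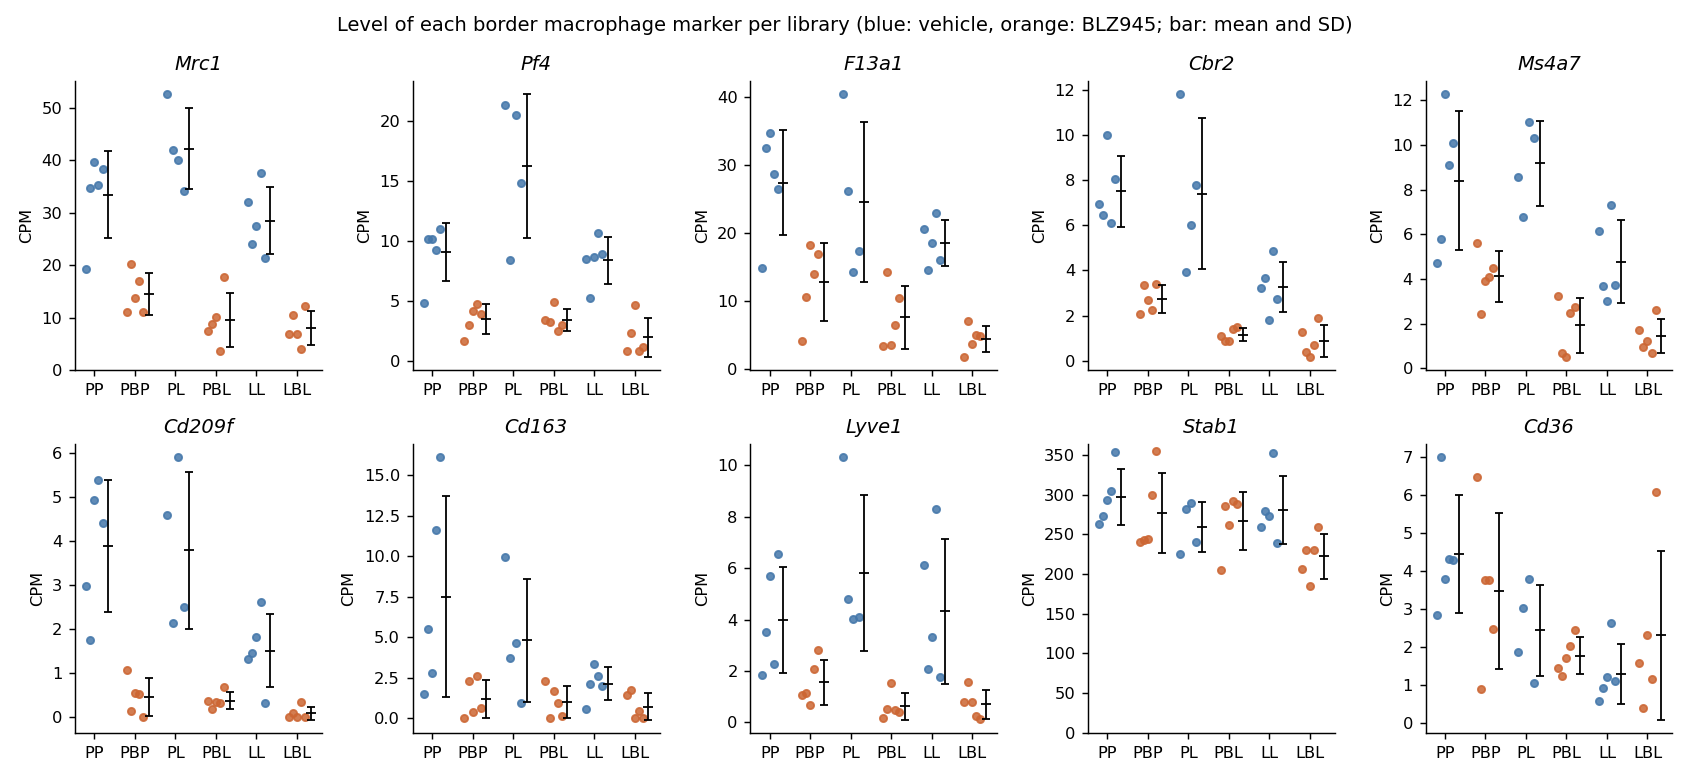
Level of each of the 10 genes in CPM (vertical axes, linear and different for each gene) in every library of the 6 groups; blue points are vehicle libraries, orange points BLZ945 libraries, and the black bar beside each group is its mean and SD. For Mrc1 all PBL and LBL libraries lie below all PL and LL libraries, whereas for Stab1 and Cd36 the ranges of the groups overlap in all 3 comparisons.

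Mrc1 encodes CD206, the mannose receptor, an endocytic receptor for glycoproteins and a widely used marker of border-associated macrophages (ENSMUSG00000026712, chromosome 2). The PP libraries held 19.2, 34.8, 39.7, 35.3 and 38.3 CPM and the PBP libraries 11.0, 20.2, 13.7, 17.0 and 11.0 CPM. The PL libraries held 52.6, 41.9, 40.1 and 34.1 CPM and the PBL libraries 7.53, 8.88, 10.2, 3.72 and 17.8 CPM. The LL libraries held 32.0, 24.1, 27.4, 37.5 and 21.4 CPM and the LBL libraries 6.94, 10.6, 6.83, 4.02 and 12.2 CPM. Every PBL library was below every PL library and every LBL library below every LL library, while PP replicate 1 lay within the PBP range. The log2 fold change was -1.19 for PBP against PP (SE 0.27, edgeR adjusted p = 0.0277), -2.12 for PBL against PL (SE 0.29, adjusted p = 5.45e-05) and -1.80 for LBL against LL (SE 0.28, adjusted p = 0.000443). As folds, Mrc1 was 2.29 times lower in PBP, 4.35 times lower in PBL and 3.49 times lower in LBL.

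The call for Mrc1 in PBP against PP was narrow. Leaving out PP replicate 2, 3, 4 or 5, or PBP replicate 1, 3 or 5, raised its adjusted p to between 0.0544 and 0.0824, with log2 fold changes from -1.18 to -1.11. Without the filter on low counts its adjusted p was 0.0587. Its calls in the LPS comparisons held when any single library was left out.

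Cd209f encodes a C-type lectin of the DC-SIGN family and had few counts (ENSMUSG00000051906, chromosome 8). The PP libraries held 24, 13, 39, 45 and 35 counts and the PBP libraries 10, 1, 4, 6 and 0. The PL libraries held 37, 12, 50 and 19 counts and the PBL libraries 2, 1, 2, 2 and 5. The LL libraries held 9, 19, 12, 19 and 3 counts and the LBL libraries 0, 1, 0, 3 and 0. On the CPM scale the BLZ945 and vehicle libraries did not overlap without LPS or with LPS after saline. LL replicate 5, at 0.329 CPM, was within the LBL range, whose top is LBL replicate 4 at 0.345 CPM. No BLZ945 library exceeded 1.08 CPM. Cd209f thus passed the filter on low counts only through vehicle libraries, so its calls are no independent support. The log2 fold changes were -2.99 for PBP against PP (SE 0.62, edgeR adjusted p = 0.0117), -3.27 for PBL against PL (SE 0.67, adjusted p = 0.00141) and -3.70 for LBL against LL (SE 0.77, adjusted p = 0.00792). With so few counts the size is uncertain: the 95% interval in LBL against LL ran from -5.26 to -2.14. Leaving out PBP replicate 2 gave -2.77 in PBP against PP and an adjusted p of 0.0504. Its gene family has close copies, Cd209b, Cd209d and Cd209g among them, whose own counts were too low to be tested, and reads shared between copies cannot be assigned with certainty.

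Cd163, the haemoglobin-haptoglobin scavenger receptor of perivascular macrophages (ENSMUSG00000008845, chromosome 6), varied widely between replicates. The PP libraries held 1.49, 5.53, 2.78, 11.6 and 16.1 CPM and the PBP libraries 0, 2.31, 0.403, 2.59 and 0.621 CPM. Within PP alone, the levels thus ran over a wider range than the gap between the group means of 7.51 ± 6.20 and 1.19 ± 1.18 CPM (SD, n = 5 each). The means were 4.81 ± 3.77 CPM in PL (n = 4) and 1.02 ± 1.00 in PBL (n = 5), and 2.13 ± 1.01 in LL and 0.726 ± 0.815 in LBL (n = 5 each). Its log2 fold changes of -2.61 (SE 0.83, edgeR adjusted p = 0.165), -2.25 (SE 0.90, adjusted p = 0.0692) and -1.48 (SE 0.88, adjusted p = 0.515) were not called. Without PBL replicate 1 the second became -2.79 (adjusted p = 0.0414), and without PBP replicate 1, a library outside that comparison, it stayed at -2.25 with an adjusted p of 0.0498.

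Lyve1 encodes a hyaluronan receptor that marks a subset of border-associated macrophages along vessels (ENSMUSG00000030787, chromosome 7). It was called with LPS. The PL libraries held 10.3, 4.81, 4.02 and 4.10 CPM, all above the PBL libraries at 0.179, 0.533, 1.53, 0.466 and 0.410 CPM. The LL libraries held 6.13, 2.07, 3.34, 8.30 and 1.75 CPM, all above the LBL libraries at 0.789, 1.56, 0.776, 0.230 and 0.145 CPM. In PBL against PL the log2 fold change was -3.20 (SE 0.61, edgeR adjusted p = 0.000754), and in LBL against LL it was -2.55 (SE 0.57, adjusted p = 0.0151). In PBP against PP, where the ranges of 0.672 to 2.80 and 1.86 to 6.55 CPM overlapped, it was -1.35 (SE 0.52, adjusted p = 0.271). The LBL call was lost without LL replicate 4 (-2.17, adjusted p = 0.0781) and without LBL replicate 5 (-2.30, adjusted p = 0.0562).

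Stab1 encodes stabilin 1, a scavenger receptor that takes up modified lipoproteins and matrix fragments (ENSMUSG00000042286, chromosome 14). Its means were 297 ± 35.3 CPM in PP against 276 ± 50.5 in PBP, 259 ± 31.1 in PL against 267 ± 36.2 in PBL, and 281 ± 42.6 in LL against 222 ± 28.1 in LBL (SD). Stab1 stood far above the other genes, whose highest group mean was 42.2 CPM, for Mrc1 in PL. Which of the sorted cells carried the Stab1 counts was not tested. The groups overlapped in all 3 comparisons. Its log2 fold changes were -0.11 (SE 0.12, edgeR adjusted p = 0.804), 0.04 (SE 0.13, adjusted p = 0.847) and -0.34 (SE 0.12, adjusted p = 0.196), and their 95% intervals together spanned -0.58 to 0.30.

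Cd36, a scavenger receptor for oxidised lipoproteins and long-chain fatty acids (ENSMUSG00000002944, chromosome 5), was not called either. Its means were 4.45 ± 1.55 CPM in PP and 3.48 ± 2.05 in PBP, 2.44 ± 1.21 in PL and 1.77 ± 0.483 in PBL, and 1.29 ± 0.786 in LL and 2.30 ± 2.22 in LBL (SD). The BLZ945 libraries fell within or across the vehicle range each time. Its log2 fold changes were -0.34 (SE 0.49, edgeR adjusted p = 0.852), -0.44 (SE 0.56, adjusted p = 0.595) and 0.82 (SE 0.54, adjusted p = 0.567). The positive value in LBL came to 0.05 without LBL replicate 5, at 6.08 CPM the highest of its group. The intervals were wide, from -1.58 to 0.69 in PBL against PL, so the fall of Mrc1 there (-2.12) lay outside the interval of Cd36.

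Of the secreted products, Pf4 encodes platelet factor 4 (CXCL4), a chemokine stored in platelet granules and also made by border-associated macrophages (ENSMUSG00000029373, chromosome 5). The PP libraries held 4.83, 10.1, 10.1, 9.23 and 11.0 CPM and the PBP libraries 1.62, 2.96, 4.17, 4.74 and 3.88 CPM. The PL libraries held 21.3, 8.38, 20.5 and 14.8 CPM and the PBL libraries 3.40, 3.20, 4.93, 2.48 and 3.01 CPM. The LL libraries held 8.47, 5.21, 8.64, 10.7 and 8.87 CPM and the LBL libraries 0.789, 2.33, 4.65, 0.804 and 1.16 CPM. Pf4 was the only one of the 10 genes for which every BLZ945 library lay below every vehicle library in all 3 comparisons, a pattern that 0.271% of all genes tested showed. The log2 fold change was -1.38 in PBP against PP (SE 0.35, edgeR adjusted p = 0.0671), -2.26 in PBL against PL (SE 0.38, adjusted p = 0.000244) and -2.10 in LBL against LL (SE 0.38, adjusted p = 0.00183). The first was not called, and it was called without LBL replicate 3, a library outside that comparison (-1.36, adjusted p = 0.0366), and with DESeq2 (-1.37, adjusted p = 0.0138). Of 10 platelet markers, 4 could be tested and none was called in any of the 3 comparisons. Summed over all 10, of which Itgb3 was the most abundant, the level was 58.6 to 73.6 CPM in PP and 49.6 to 73.4 in PBP. It was 71.6 to 88.4 in PL and 61.1 to 79.6 in PBL, and 66.2 to 110.0 in LL against 77.9 to 116 in LBL, with overlap each time. Of these platelet genes, Gp1bb and Gp5 had no count in any group, and Ppbp had counts in PBP only. Itga2b had counts in PL, PBL, LL and LBL, and Tubb1 in PBP, PL, LL and LBL. Gp9, Gp1ba, Treml1, Itgb3 and Clec1b had counts in every group. Whether platelets contributed to the Pf4 counts was not tested.

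F13a1 encodes the A subunit of coagulation factor XIII, which cross-links fibrin (ENSMUSG00000039109, chromosome 13). The PL libraries held 40.4, 26.2, 14.3 and 17.3 CPM and the PBL libraries 3.40, 14.2, 3.57, 6.52 and 10.4 CPM. The LL libraries held 20.6, 14.5, 18.5, 23.0 and 16.1 CPM and the LBL libraries 1.74, 7.0, 3.72, 4.94 and 4.77 CPM. In both settings every BLZ945 library was below every vehicle library, with PBL replicate 2 and PL replicate 3 nearly touching. The log2 fold changes were -1.68 (SE 0.39, edgeR adjusted p = 0.00364) in PBL against PL and -2.02 (SE 0.38, adjusted p = 0.00370) in LBL against LL. In PBP against PP the ranges of 4.11 to 18.3 and 14.9 to 34.7 CPM overlapped, and the log2 fold change of -1.11 (SE 0.35, adjusted p = 0.165) was not called.

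Cbr2, a carbonyl reductase (ENSMUSG00000025150, chromosome 11), is the one enzyme that acts inside the cell. The PP libraries held 6.94, 6.47, 10.0, 6.12 and 8.06 CPM and the PBP libraries 2.05, 3.34, 2.69, 2.24 and 3.42 CPM, with no overlap. The PL libraries held 11.8, 3.92, 6.04 and 7.81 CPM and the PBL libraries 1.08, 0.888, 0.850, 1.40 and 1.5 CPM, again with no overlap. The LL libraries held 3.21, 3.68, 1.82, 4.84 and 2.74 CPM and the LBL libraries 1.26, 0.389, 0.155, 0.689 and 1.88 CPM, where only LBL replicate 5 and LL replicate 3 crossed. Its log2 fold changes were -1.46 (SE 0.37, edgeR adjusted p = 0.0590), -2.67 (SE 0.42, adjusted p = 0.000141) and -1.91 (SE 0.41, adjusted p = 0.0111). The first was called when PL replicate 2, LBL replicate 3 or LBL replicate 5 was left out (adjusted p = 0.0496, 0.0432 and 0.0371), and the third was not called without LL replicate 4 (-1.74, adjusted p = 0.0519).

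Ms4a7, a tetraspan membrane protein of macrophages (ENSMUSG00000024672, chromosome 19), had means of 8.40 ± 3.11 CPM in PP and 4.12 ± 1.15 in PBP, 9.17 ± 1.90 in PL and 1.93 ± 1.24 in PBL, and 4.78 ± 1.85 in LL and 1.45 ± 0.752 in LBL (SD). Its BLZ945 and vehicle libraries overlapped without LPS and did not overlap in the LPS comparisons. The log2 fold changes were -1.02 (SE 0.37, edgeR adjusted p = 0.220), -2.23 (SE 0.41, adjusted p = 0.000620) and -1.73 (SE 0.40, adjusted p = 0.0231). In LBL against LL its call was lost with several libraries: leaving out LL replicate 1 or 4, or LBL replicate 2, 3 or 4, gave adjusted p-values from 0.0532 to 0.0854 with log2 fold changes from -1.68 to -1.53.

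**Figure D2:**
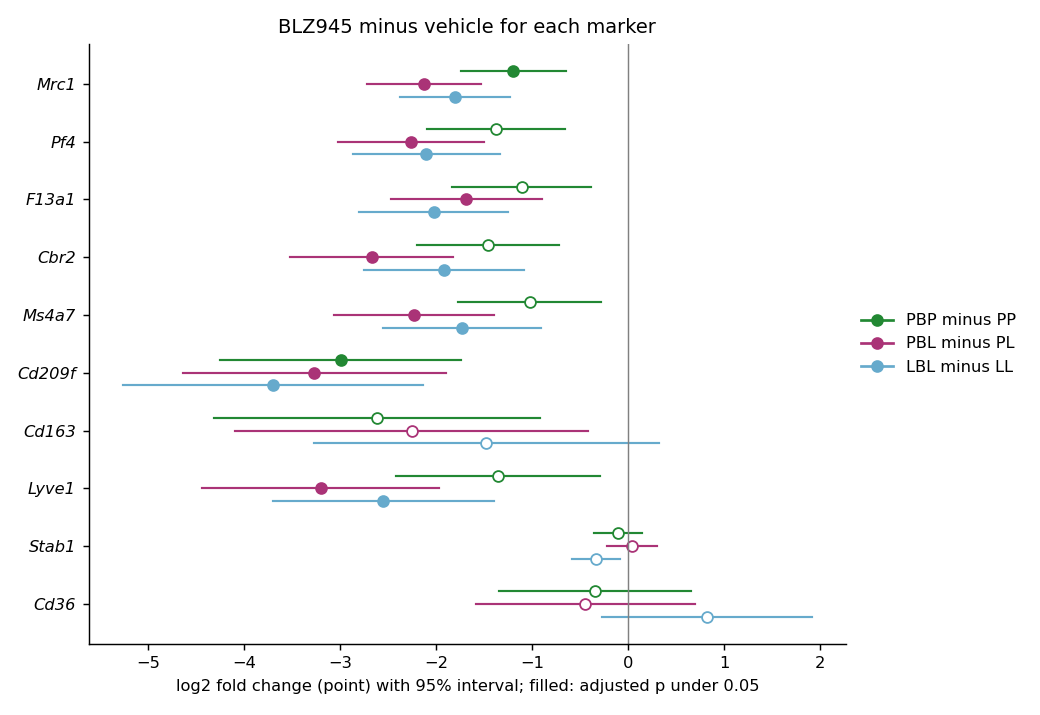
Log2 fold change of BLZ945 against vehicle (horizontal axis) for each of the 10 genes in the 3 comparisons, with 95% intervals; filled points had an edgeR adjusted p under 0.05. The points of Cd209f run from -3.70 to -2.99 and those of Stab1 from -0.34 to 0.04, and all points of Mrc1, Pf4, F13a1, Cbr2, Ms4a7, Cd163 and Lyve1 lie to the left of 0.

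Set against all genes, 2 of the 10 were called lower in PBP against PP, where 0.241% of the genes tested were. In PBL against PL 7 were, where 11.1% of the genes tested were, and in LBL against LL 7 were, where 0.722% were. None of the 10 was called higher in any of the 3, where 0.289%, 11% and 0.487% of all genes were. The 7 were Mrc1, Pf4, F13a1, Cbr2, Ms4a7, Cd209f and Lyve1 both times. Counted by ranges, every BLZ945 library lay below every vehicle library for 3 of the 10 genes in PBP against PP (1.35% of all genes), 7 in PBL against PL (6.13%) and 5 in LBL against LL (3.03%). Mrc1 and Cd209f were called lower in all 3, as were 0.126% of all genes. Cd209f passed the filter on low counts only through vehicle libraries, so its part in these counts is no independent support. The mean of the 3 differences, which uses all 29 libraries, was called lower for 8 of the 10 (11.9% of all genes were called lower and 13.5% higher), from -1.61 for F13a1 to -3.32 for Cd209f. Cd163 was called here only (-2.11, SE 0.50, edgeR adjusted p = 0.00295), with Stab1 (-0.13, SE 0.07, adjusted p = 0.170) and Cd36 (0.01, SE 0.28, adjusted p = 0.985) not called. The Cd163 call did not hold with the sorter (-1.70, adjusted p = 0.483) or the sorting day (-2.50, adjusted p = 0.374) in the model, nor did that of Cd209f (-1.49, adjusted p = 0.988, and -1.01, adjusted p = 0.977). The Ms4a7 call was lost with the day (-1.35, adjusted p = 0.155). Without PBP replicate 5 the mean difference of Stab1 was -0.19 and was called (adjusted p = 0.0450), and with RNA quality number in the model it was also -0.19 (adjusted p = 0.0247).

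Did all 10 genes shift alike? The difference of each gene from Mrc1 within the same library was tested with limma over all genes, on log2 CPM with a prior count of 2, which makes the falls of sparse transcripts look smaller than in the edgeR model. The variance in this fit came almost wholly from a trend over all genes (382513 degrees of freedom for Pf4, against 23 from the libraries). Its SEs, intervals and p-values thus reflect a shared variance and not the replicate spread of each gene. Most genes of the table do not move with Mrc1, so that 82.9% of them differed from its shift in PBP against PP, 98.7% in PBL against PL and 97.6% in LBL against LL. Of the other 9 markers, 3, 2 and 2 did. The shares over all genes follow from the fall of Mrc1 itself and do not show that the markers shift alike. For the mean of the 3 differences 99.7% of all genes differed from Mrc1, and so did Stab1 (1.62), Cd36 (1.64) and Cd209f (-0.76, limma adjusted p = 0.0430). The Cd209f call held in 12 of the 29 fits that each left out a library, with adjusted p up to 0.0820 in the others. Stab1 differed each time, by 1.06 (SE 0.33, limma adjusted p = 0.00379), 2.29 (SE 0.35, adjusted p = 6.11e-10) and 1.51 (SE 0.33, adjusted p = 1.12e-05) on the log2 scale above the shift of Mrc1. Cd36 differed in the LPS comparisons, by 1.93 (SE 0.58, adjusted p = 0.000985) in PBL against PL and 2.30 (SE 0.55, adjusted p = 4.49e-05) in LBL against LL. In PBP against PP its difference of 0.69 had a 95% interval from -0.39 to 1.76.

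In the other direction, Cd209f shifted further down than Mrc1 in PBP against PP, by -1.49 (SE 0.63, limma adjusted p = 0.0252), and Cd163 by -1.30 (SE 0.59, adjusted p = 0.0342). Both rested on single libraries. The Cd209f call was lost without PP replicate 4, PBP replicate 2 or PBP replicate 5 (adjusted p = 0.0570, 0.0800 and 0.0657), and the Cd163 call without PP replicate 4 or 5 or PBP replicate 1 or 3 (adjusted p from 0.0756 to 0.167). The Cd163 call was also lost when each gene kept its own variance (adjusted p = 0.148). With Pf4 in place of Mrc1 as the reference it was -1.14 and not called (adjusted p = 0.0669), and the mean shift of Cd209f was -0.63 and not called (adjusted p = 0.0973). For Pf4, F13a1, Cbr2, Ms4a7 and Lyve1 no difference from Mrc1 was called in any comparison. Their differences lay between -0.59 and 0.50, and the 95% intervals, which use the shared variance, reached from -1.77 to 1.33. Differences from Mrc1 within those intervals remain possible.

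**Figure D3:**
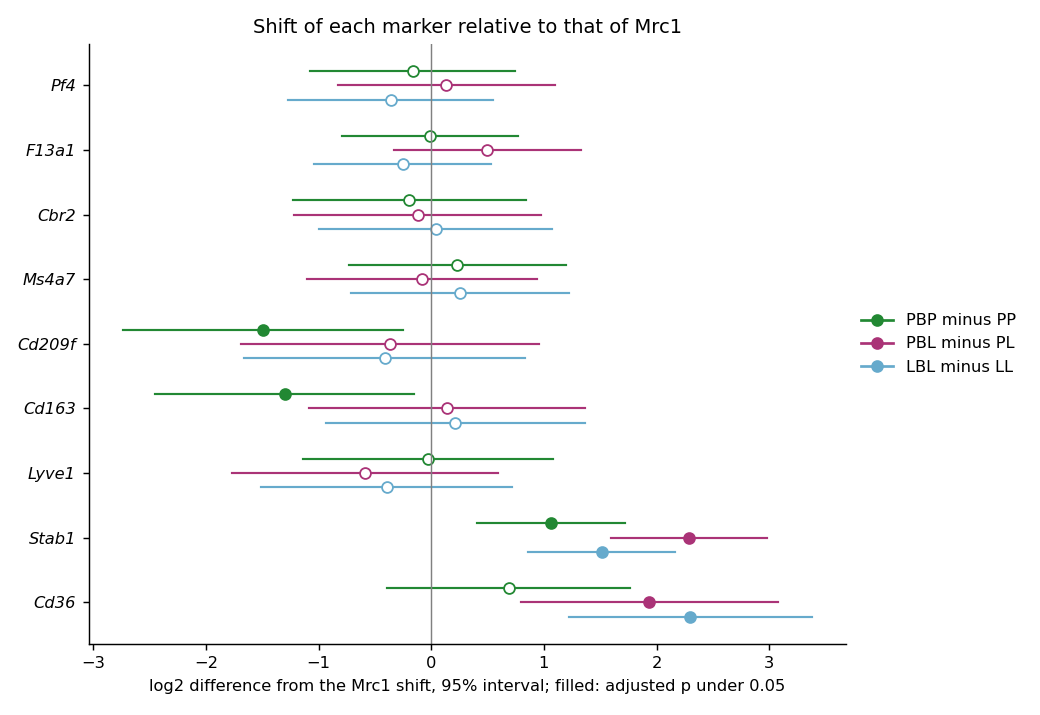
Log2 difference between the BLZ945 shift of each gene and that of Mrc1 in the same libraries (horizontal axis) for 9 genes in the 3 comparisons, with 95% intervals; filled points had a limma adjusted p under 0.05. Stab1 lies to the right of 0 in all 3, Cd36 in both LPS comparisons, and the intervals of Pf4, F13a1, Cbr2, Ms4a7 and Lyve1 include 0.

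Batches bear on these comparisons to different degrees. LL and LBL shared both days and the sorter, so they can be compared within a day. On day 1, with 4 LBL libraries against LL replicate 5, all LBL libraries were below for 8 of the 10 genes, as they were for 23.3% of all genes tested. On day 2, with LBL replicate 5 against 4 LL libraries, LBL was below all LL for 8 of the 10, against 23.7% of all genes. On both days LBL was below for 7 of the 10, against 8.36% of all genes. They were Mrc1, Pf4, F13a1, Ms4a7, Cd163, Lyve1 and Stab1, a set unlike the 7 called in the main fit. Cbr2 failed on day 2 and Cd209f on day 1. For Stab1 on day 2 the gap was narrow, with 259.35 CPM in LBL against at least 259.72 in LL. Mrc1 was at 4.02 to 10.6 CPM in LBL against 21.4 CPM in LL on day 1, and at 12.2 CPM in LBL against 24.1 to 37.5 CPM in LL on day 2. With sorting day in the edgeR model, Mrc1 (-1.45, adjusted p = 0.0211), Pf4 (-2.34, adjusted p = 0.0132) and F13a1 (-1.91, adjusted p = 0.0301) were still called in LBL against LL. Cbr2, Ms4a7, Cd209f and Lyve1 were not (adjusted p from 0.11 to 0.189). All LL and LBL libraries ran on the XDP sorter, so a term for the sorter is no check of this comparison. With it, the 7 genes called in the main fit were called again.

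PBL and PL shared neither day nor sorter, and the batch and BLZ945 cannot be told apart within that pair. A model with the sorter takes its estimate from PBP replicate 5 alone, the one library that puts a group on both sorters, and none of the 10 genes was then called in PBL against PL. The fitted values were -1.63 for Mrc1 (edgeR adjusted p = 0.706), -2.46 for Pf4 (0.678), -3.08 for Cbr2 (0.239) and -4.34 for Lyve1 (0.239). Cd209f, which had 0 counts in PBP replicate 5, turned to 1.93 (adjusted p = 0.953). PBP and PP shared no day, and with the day in the model neither Mrc1 (-1.46, adjusted p = 0.189) nor Cd209f (-2.41, adjusted p = 0.338) was called. Both groups ran on the Astrios sorter but for PBP replicate 5. With the sorter in that model Cd209f was called and Mrc1 was not (-1.11, adjusted p = 0.0720).

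**Figure D4:**
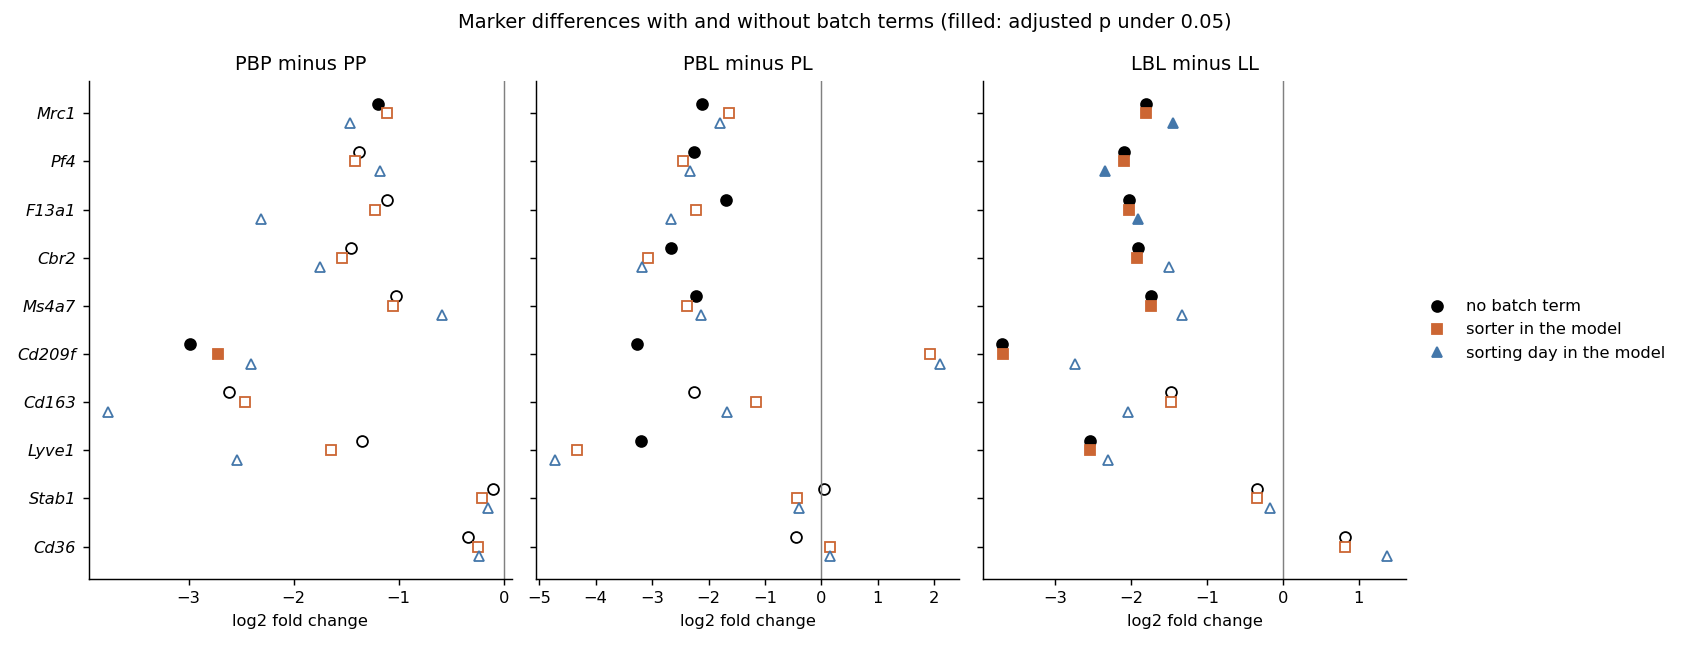
Log2 fold change of each gene (horizontal axis) in the 3 comparisons, without a batch term (black circles), with the sorter (orange squares) and with the sorting day (blue triangles) in the edgeR model; filled symbols had an adjusted p under 0.05. In LBL against LL, where all libraries ran on the same sorter, the circles and squares lie close together. In PBL against PL no square or triangle is filled, and those of Cd209f lie to the right of 0, at 1.93 and 2.10.

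Did the injections themselves move these genes? Among vehicle mice, LPS after saline left all 10 without a call (PL against PP, where 14.2% of all genes were called higher and 11.9% lower). Pf4 came nearest, at 9.05 ± 2.44 CPM in PP (SD, n = 5) and 16.2 ± 5.98 in PL (n = 4), where the log2 fold change was 0.85 (SE 0.35, edgeR adjusted p = 0.0727). It was called without PL replicate 2 (1.06, adjusted p = 0.0298) and without LBL replicate 3 (0.83, adjusted p = 0.0460). Among BLZ945 mice, Cbr2 (-1.23, SE 0.41, adjusted p = 0.0147) and Ms4a7 (-1.08, SE 0.40, adjusted p = 0.0286) were called lower in PBL than in PBP, where 21.5% of all genes were called lower. The Ms4a7 call was lost without PBP replicate 1 or PBL replicate 2 or 3 (adjusted p from 0.0766 to 0.0890), and neither gene was called with the sorter in the model. An earlier LPS injection brought no call for any of the 10, in vehicle mice (LL against PL, 2.03% of all genes called lower and 0.752% higher) or in BLZ945 mice (LBL against PBL, 4% lower and 2.74% higher). LL and PL shared neither day nor sorter, and LBL and PBL shared the sorter but no day, so that batch and earlier injection cannot be told apart. The median log2 difference of the 10 genes was -0.94 in LL against PL, where that of all genes was 0.01. Cbr2 was at -1.18 (SE 0.38, edgeR adjusted p = 0.0883) and Pf4 at -0.97 (SE 0.35, adjusted p = 0.144).

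The fitted BLZ945 difference was larger with LPS than without for several genes, yet no such change passed the test. PBL and PL shared neither day nor sorter, and PBP and PP shared no day. Batch and LPS thus cannot be told apart in contrasts that use these pairs. For Mrc1 the difference between the PBL against PL and the PBP against PP values was -0.93 (SE 0.39, edgeR adjusted p = 0.332), and for Lyve1 -1.85 (SE 0.80, adjusted p = 0.341). No gene of the whole table was called in that contrast, in which 2120 genes had an unadjusted p under 0.05. Between LBL against LL and PBL against PL, 4 genes (0.0241%) were called, none of them among the 10, and between LBL against LL and PBP against PP none was, with 692 genes at an unadjusted p under 0.05.

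LBL had the lowest group mean for 8 of the 10 genes. For Mrc1 the order of the group means ran PL, PP, LL, PBP, PBL, LBL (42.2, 33.5, 28.5, 14.6, 9.62 and 8.11 CPM), and the only neighbours whose libraries did not overlap were LL and PBP. Pf4 had that same order, with the same single gap. F13a1 ran from 27.4 CPM in PP down to 4.43 in LBL with overlap at every step. All 3 vehicle means were above all 3 BLZ945 means for each of the 10 genes except Stab1 and Cd36.

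A wider list of genes linked to border-associated macrophages was examined beside the 10. Of 30 listed, 24 could be tested, and Clec10a, Cd209b, Cd209d, Cd209g, Vsig4 and Timd4 were too sparse. In PBP against PP 1 was called higher and 0 lower, in PBL against PL 2 higher and 6 lower, and in LBL against LL 1 higher and 1 lower. Their median log2 differences were -0.21, -0.60 and -0.37. Clec4n, which encodes the fungal pattern receptor Dectin-2, had log2 fold changes of -1.81 (SE 0.62, edgeR adjusted p = 0.196), -2.39 (SE 0.54, adjusted p = 0.00286) and -2.03 (SE 0.52, adjusted p = 0.0421). In PBL against PL, Apoe (apolipoprotein E, -0.68), the transcription factor gene Maf (-0.49), the iron exporter gene Slc40a1 (-0.96), the chemokine gene Ccl24 (-0.85) and the ectoenzyme gene Cd38 (-1.92) were also called lower, with adjusted p from 0.000244 to 0.0378. Tgfbi, a secreted matrix protein gene, was called higher there (0.42, adjusted p = 0.0217).

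Igfbp4, an insulin-like growth factor binding protein gene, went the other way in all 3. Its log2 fold change was 0.94 in PBP against PP (SE 0.16, edgeR adjusted p = 0.00162), 0.97 in PBL against PL (SE 0.18, adjusted p = 0.000628) and 0.88 in LBL against LL (SE 0.17, adjusted p = 0.00286). Only 0.0661% of all genes were called higher in all 3.

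Markers of other cells were called too, mostly in PBL against PL. All 7 testable neutrophil markers, Ngp the most abundant, were called higher in PBL against PL, and the summed level of the 11 listed was 128 to 486 CPM in PBL against 2.12 to 21.5 in PL. Neutrophil levels were 0 to 7.97 CPM in PP, 0 to 6.52 in PBP, 0.876 to 35.7 in LL and 0.875 to 4.73 in LBL, with no call in those comparisons. Neuron markers were called higher in 9 of 10 tested in PBL against PL, 1 in PBP against PP and 0 in LBL against LL, with summed levels of 124 to 251 CPM in PBL and 24.8 to 51.6 in PL. In LBL against LL the 10 tested neuron markers had a median log2 difference of 0.49, and the 7 tested neutrophil markers one of -2.98. The summed level of the neuron markers was 92.0 to 237 CPM in LBL and 53.1 to 249 in LL. The part of either list in the lower levels of the 10 border-associated macrophage genes was not tested.

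Among the 12 microglia markers, 1 was called lower in PBP against PP, 7 in PBL against PL and 1 in LBL against LL. Fcrls was called lower each time (-0.56, -0.64 and -0.50). Of 13 monocyte markers 9 could be tested: 0, 4 and 1 were called higher and none lower, and the summed level was 12.3 to 36.9 CPM in all groups but PBL, where it reached 107. Ccr2 was the most abundant monocyte marker. Ly6c2, a gene of the Ly6C protein that the sort excluded, had counts in PP, PBL and LL and none in PBP, PL and LBL. Of 6 lymphatic endothelium markers 5 were in the table and 2 could be tested, without a call in any of the 3 comparisons. Prox1 was the most abundant of them, and Flt4 had counts in PBP, LL and LBL and none in PP, PL and PBL. Among blood endothelium markers 1 was called lower in each comparison, Pecam1 (-1.62, -1.75 and -1.82, adjusted p from 0.000139 to 0.000442), which leukocytes also express. Flt1, the gene of a VEGF receptor, was called higher in PBL against PL (1.95, SE 0.71, edgeR adjusted p = 0.0445). The B cell genes Ighm and Cd79b, the only lymphocyte markers that could be tested, gave 1, 2 and 1 calls lower. Of the 9 dendritic cell and 6 fibroblast markers, 7 and 1 could be tested, and none was called. Whether these lists had a part in the lower levels of the 10 genes was not tested.

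How closely did the markers vary together between libraries of the same group? After subtracting each group's mean log2 CPM, Pearson's r with Mrc1 over the 29 libraries was 0.37 for F13a1 (rank 728 of 16631 genes), 0.36 for Pf4 (rank 807) and 0.35 for Lyve1 (rank 912). It was 0.22 for Cbr2, 0.19 for Stab1, 0.17 for Ms4a7, 0.14 for Cd163, 0.14 for Cd209f and 0.11 for Cd36. Over all genes the median r was 0.0059, and 90% of the genes were below 0.28. Over all 45 pairs of the 10 genes r was positive in 32, with a median of 0.13 and a range from -0.27 to 0.49. The genes most like Mrc1 by this measure were H6pd (0.77), Gm49588 (0.75), 4930579G24Rik (0.74), Gpd1l (0.69), Angptl7 (0.69), Erlin2 (0.68), Myo1f (0.68), Ccdc8 (0.66), Nrp1 (0.65) and Atf7 (0.65). Without PBL replicates 4 and 5, the libraries in which Mrc1 lay farthest from its group mean, the r of H6pd was 0.65 and that of Pf4 0.41. These values describe libraries that share depth, sorting day and few counts per gene, and they carry no test.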

How the data were processed

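Whole-number read counts per gene, as the authors deposited them without normalization, were analysed for 29 libraries of sorted microglia. The submitters' processing notes name FastQC 0.11.9, cutadapt 2.10, TopHat, SAMtools 1.10, Picard 2.13.2, HTSeq 0.11.0 and the build GRCm39, without role or order; the strand setting of the counting is not given in the sources used here. RNA quality numbers, an integrity score, and sorting days were taken from the authors' deposited sample table.

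Tests used edgeR 4.0.16 under R 4.3.3 (filterByExpr at its defaults, TMM scaling, robust quasi-likelihood fit, 1 coefficient per group, 23 residual degrees of freedom, two-sided p, Benjamini-Hochberg over 16632 genes). The shift relative to Mrc1 was tested with limma 3.58.1 (trend, robust) on log2 CPM with a prior count of 2. CPM values use TMM-scaled library sizes. Both fits were run on simulated counts in which changed genes shifted alike in all BLZ945 groups. The simulation held no sorter or day effect, so it does not bear on the batches. No pair of libraries of a group agreed within sampling noise (chi-square per degree of freedom from 5.47 to 32.45 over 56 pairs), so each counted as 1 replicate. Intervals cover the 95% level.

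The genes, their lists and the tests were chosen with earlier results of these data known. All 10 markers were named, as were other border-associated macrophage genes called in a BLZ945 comparison, the 10 genes most like Mrc1, and from other marker lists the most abundant gene and called genes where the list is described, of which some are not reported here. Alternatives were DESeq2 1.42.0, limma voom, another library scaling (RLE), no filter on low counts, sorter, sorting day, replicate number or RNA quality number in the model, only the groups compared, each library left out, and, for the relative shift, Pf4 as the reference and a prior count of 0.5. Giving each gene its own variance was added after the data were seen. The counts use another build than the reference at hand, so only RefSeq promoter windows carry coordinates.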

Additional observations from a re-analysis of the deposited data

Results flagged for a closer look

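Among the 60 sets formed by 10 genes and 6 groups, 5 held a library far from the others of its group, where Dixon's test at its 95% level was applied; chance flags about 1 in 20 such sets. PP replicate 1 was the lowest of its group for Mrc1, at 19.2 CPM against 34.8 to 39.7 in the other 4, and for Pf4, at 4.83 CPM against 9.23 to 11.0. Lyve1 was highest in PL replicate 1, at 10.3 CPM against 4.02 to 4.81, and in PBL replicate 3, at 1.53 CPM against 0.179 to 0.533. Cd209f in LBL replicate 4 was at 0.345 CPM, 3 counts, against 0 to 0.0972 in the other LBL libraries. Without PP replicate 1 the Mrc1 difference between PBP and PP was -1.34 and that of Pf4 -1.54. Without PBL replicate 3 the Lyve1 difference between PBL and PL was -3.78, and without PL replicate 1 it was -2.75.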

How the results depend on the processing

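The calls for Mrc1, Pf4, F13a1, Cbr2, Ms4a7, Cd209f and Lyve1 in PBL against PL held under all alternatives run except the sorter and the sorting day, while both calls in PBP against PP were lost when certain single libraries were left out. In PBP against PP the number of the 10 genes called lower was 4 with DESeq2 (276 genes called in all), 1 with the sorter and 0 with the sorting day (11 in all), and ran from 1 to 4 as single libraries were left out (49, without PP replicate 1, to 105 in all). In PBL against PL it was 0 with the sorter (3 genes in all) and 0 with the sorting day (5 in all); all genes called came to 2297 with RNA quality as a covariate and ran from 2326 (without PBL replicate 4) to 4389 with a library left out. In LBL against LL it was 4 with DESeq2 (430 in all), where Cbr2, Cd209f and Lyve1 got no adjusted p, 3 with the sorting day, and from 4 (without LL replicate 4) to 7 with a library left out (85, without LL replicate 4, to 376, without PBP replicate 5, in all); all genes called were 126 without the filter, 330 with the sorter and 326 with RNA quality. For the mean of the 3 differences it was 5 with the sorting day, with 123 genes in all and 163 with the sorter. In PBL against PBP it was 0 with the sorter. DESeq2 called 1 of the 10 lower in LL against PL. With a library left out, 0 to 1 were called higher in PL against PP, and 0 to 1 lower in LL against PL and in LBL against PBL, and 1 to 3 differed from Mrc1 in PBP against PP.

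Signs turned for uncalled values near 0 and for Cd209f. In PBL against PL, Stab1 came to -0.43 with the sorter, -0.40 with the sorting day, -0.089 with RNA quality, and from -0.0010 to 0.12 with a library left out. Cd36 came to 0.14 and 0.15, and Cd209f to 1.93 and 2.10, with sorter and day. The mean difference of Cd36 was -0.14 with limma voom, -0.089 with RNA quality, and from -0.25 to 0.15 with a library left out. Replicate numbers were shared between groups, but libraries of the same number did not deviate together (correlations from -0.31 to 0.29), so they share only a number. With the number as a replicate block, Stab1 in PBL against PL was -0.0088 and the mean difference of Cd36 -0.11, Pf4 in PBP against PP was called (adjusted p = 0.0465), and no count of calls moved by over 1.5 times. In LBL against LL, limma voom ended the call for Lyve1 (adjusted p = 0.0589) and a fit on only those groups that for Cbr2 (adjusted p = 0.0718); the latter gave Cd209f and Cd36 no value there, because they did not pass its filter. The cause of these changes was not tested. Of 91 further values of these genes in the other contrasts, recomputed 2973 times, 100 recomputed values had another sign and 10 became called; none of the 91 was called to begin with. Low counts limit Cd209f, Cd163 and Lyve1 in the BLZ945 groups, and Cbr2 and Ms4a7 in PBL and LBL. Cbr2 had 5 to 11 counts per library in PBL and 1 to 13 in LBL. Ms4a7 had 3 to 20 in PBL and 6 to 18 in LBL.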
